A study of Homo sapiens with 15 samples.

Results

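The response of Caco-2 cells to polydextrose fermented in the vessel of a colon simulator that stands for the ascending colon is described here, gene by gene. A gene was included where both the 1% and the 2% polydextrose fluid of vessel 1 differed from the 0% fluid of that vessel by at least 0.7 on the log2 scale, a 1.62-fold difference, in the same direction. The brightest of the 3 arrays also had to reach log2 6. Of 19775 genes 7860 were that bright, and 125 of them met the rule. With both fluids 89 genes were higher than with the 0% fluid, 1.13% of the bright genes, and 36 were lower, 0.458% of them.

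Caco-2 is a colon carcinoma line of human epithelial origin, and it was used before differentiation. Polydextrose, a poorly digested glucose polymer, was fermented for 48 h at 0%, 1% or 2% in 4 connected vessels, and the bacteria were then spun out. The cells received the fluid of a single vessel at 10% by volume in serum-free medium for 24 h. The 0% fluid came from a fermentation without added polydextrose. How the fluids differed in content after fermentation is not given in the labels. Vessel 1 stands for the ascending, vessel 2 for the transverse and vessel 3 for the descending colon, and vessel 4 for the sigmoid and rectal end.

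Each of the 12 fluids was read on 1 Affymetrix array of total RNA, and so were 5 mM butyrate, 100 mM NaCl and medium alone, all for 24 h. The labels list no repeat of any treatment and no chemical analysis of the fluids. The comparison within vessel 1 therefore had no replicate and no test, and its differences are described as values of single arrays. Tests were possible for the same genes in vessels 2 to 4, whose 9 arrays took no part in the choice. Those tests measure the spread between connected vessels of 1 simulation per concentration, not between repeated simulations or cultures. Because an array reads the RNA of a whole culture, fewer cells expressing a gene and less RNA per cell cannot be told apart.

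The deposited values are log2 intensities normalized by GCRMA, on which a difference of 1 is a 2-fold difference. A gene was read from its brightest probe set over the 15 arrays, and a value under log2 5 is treated as dim, so that a difference from it is a lower bound. Of 10 epithelial markers 7 were at log2 5 or more in all 3 arrays of vessel 1, EPCAM, CDH1, KRT8, KRT18, KRT19, KRT20 and CDH17, while VIL1, CDX1 and CDX2 were dim. Their summed log2 values were 97.8, 98.1 and 99.4 with 0%, 1% and 2%. All 8 leukocyte and 7 endothelial markers measured were under log2 5 in these 3 arrays, and so were 9 of 10 fibroblast markers, with COL1A1 above it. The gap between 3′ and 5′ signal of ACTB, a sign of RNA quality, was log2 0.726, 0.924 and 0.62 with 0%, 1% and 2%. In vessels 2 to 4 it was 0.366 to 0.636. In medium, the reference for the butyrate and NaCl differences, it was 0.951, against 0.585 with butyrate and 0.641 with NaCl. Its part in the differences below was not tested.

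At least 0.7 in either direction separated the 1% from the 0% array for 561 genes (7.2% of those compared) and the 2% from the 0% array for 312 genes (4.06%). Among vessels 2 to 4 the 9 pairs of arrays at the same concentration differed that far in 21 to 148 genes, with a median of 69. The 0% array of vessel 1 differed that far from the 0% arrays of vessels 2, 3 and 4 in 357 (4.63%), 328 (4.25%) and 600 (7.8%) genes, each more than the 312 between 2% and 0% in vessel 1. Both differences in vessel 1 share the same 0% array, so whatever is particular to that array enters each of the 125 genes. Of the 89 higher genes 86 had a lower level in the 0% fluid of vessel 1 than in any 0% fluid of vessels 2 to 4. Of the 36 lower genes 34 had a higher level there than in any of them. The rule favours such genes, since it asks for a 0% value apart from the 1% and 2% arrays. The share over all bright genes was not counted. The 1% level of the higher genes lay within the range of those 0% fluids for 39 genes, above it for 34 and below it for 16. The 2% level lay within it for 45, above it for 17 and below it for 27.

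Several regulatory pathways recur in the text, and their wiring is textbook knowledge. When amino acids run short or unfolded proteins gather in the endoplasmic reticulum, kinases slow translation and the transcription factor ATF4 is made, which switches on DDIT3, CHAC1, SESN2 and others. When oxygen is low, HIF factors are stabilised and raise genes of glycolysis, glucose uptake and growth restraint. NF-kB drives chemokines in gut epithelium that draw neutrophils and lymphocytes. Butyrate, a bacterial product of fibre fermentation in the colon, inhibits histone deacetylases, slows the cycle of colon cancer cells and pushes them toward differentiation.

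**Figure D1:**
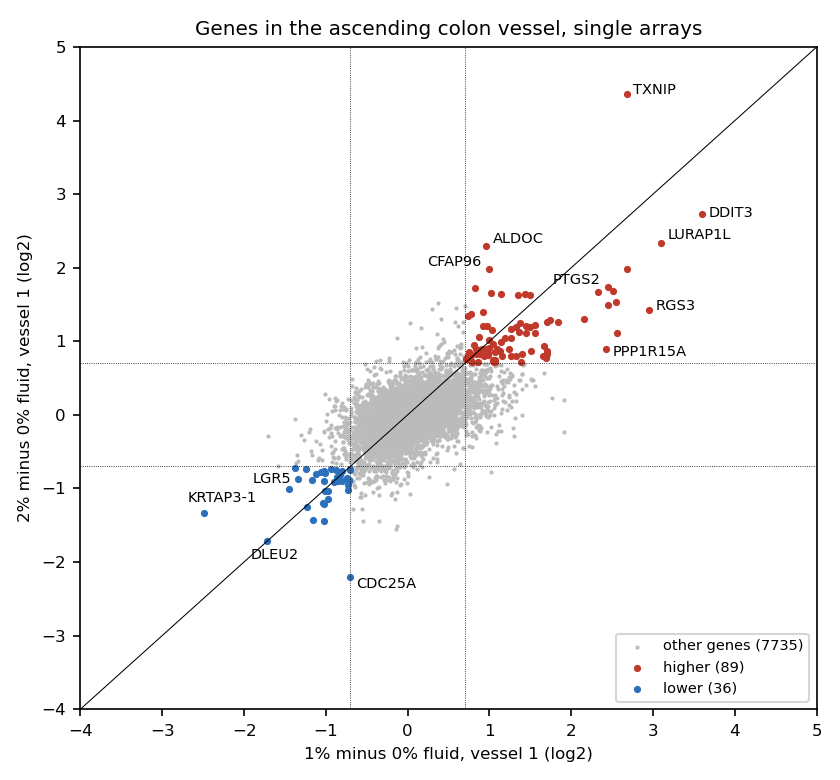
Each point is 1 of the 7860 bright genes, placed by its difference between the 1% and 0% arrays (x axis, log2) and between the 2% and 0% arrays (y axis, log2) of vessel 1. Red points are the 89 genes higher with both and blue points the 36 lower with both, and DDIT3 and TXNIP lie farthest from the bulk, with DDIT3 at 3.6 and 2.73 and TXNIP at 2.68 and 4.37.

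The higher genes were as a group further from 0% in the 1% than in the 2% array. Their median difference was 1.13 with 1% and 0.94 with 2%, beside 0.03 and 0.01 for all bright genes, and the ranges were 0.72 to 3.6 and 0.71 to 4.37. In 62 of the 89 the 1% value was above the 2% value, and in 15 of these by 0.7 or more. The reverse gap reached 0.7 in 4 genes, TXNIP, ALDOC, CFAP96 and S100A9, and 44 genes had both values within 0.3 of each other. The lower genes had medians of -0.99 with 1% and -0.90 with 2%, and ranges of -2.49 to -0.70 and -2.21 to -0.73. At least a 2-fold difference with both fluids was seen for 32 of the higher and 9 of the lower genes. Since these values chose the genes, they describe the choice and support nothing further. With all probe sets of a gene averaged, 59 genes were higher and 21 lower. Without the 1% array 152 were higher and 160 lower, and without the 2% array 409 and 152.

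At the border of the rule CCDC174 (0.785 with 1%, 0.714 with 2%) and RNF41 (1.053 and 0.715) were just inside, while P4HA1 (0.698 and 1.481) and DCAF11 (1.101 and 0.697) were just outside. Among lower genes TRIM14 (-0.701 and -0.75) and OIP5 (-0.701 and -0.74) were just inside. HECW2-AS1 (-1.59 and -0.698) and SKP2 (-0.698 and -0.873) were just outside. Other bright probe sets were present for 32 of the 125 genes. For 30 of these all of them had the same sign as the one used, and for 17 all met the rule themselves. A second probe set of CADPS read -0.07 and 0.54, and of RAB11FIP3 0.38 and 0.26 where the gene was counted as lower.

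Genes of the ATF4 pathway were among the higher genes, and DDIT3 had the largest difference of all 125 with the 1% fluid. DDIT3 encodes CHOP, a transcription factor that promotes cell death under lasting stress, and it read log2 7.54, 11.14 and 10.27 in the 0%, 1% and 2% arrays of vessel 1. It was thus 12.1-fold higher with 1% and 6.65-fold higher with 2% than with 0%. Its level was 8.41 with butyrate and 9.31 in medium alone, so the 0% fluid lay below the medium and both polydextrose fluids above it. CHAC1, an enzyme that breaks down glutathione, read 7.56, 10.07 and 9.25 with 0%, 1% and 2%, against 6.34 with butyrate and 8.19 in medium. ATF3, a stress-induced transcription factor, read 8.56, 11.01 and 10.05, against 9.64 with butyrate and 9.5 in medium. Like DDIT3, CHAC1 and ATF3 were lower with the 0% fluid than in medium and higher with 1% and 2%.

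SESN2 and DDIT4, which restrain mTOR signalling, were also among the higher genes. SESN2 read 5.89, 8.44 and 7.0 with 0%, 1% and 2%, 6.49 with butyrate and 7.53 in medium. DDIT4 read 11.04, 12.74 and 12.3, against 10.69 with butyrate and 11.55 in medium. VLDLR, a lipoprotein receptor, read 5.78, 7.28 and 6.97 with 0%, 1% and 2%. For SESN2 the 2% array stayed under the medium level, whereas for DDIT4 and VLDLR, which had 6.61 in medium, it was above.

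Of 24 genes on a list of ATF4 targets 19 were bright in vessel 1, and 5 of them met the rule as higher (CHAC1, DDIT3, DDIT4, SESN2 and VLDLR) and 0 as lower. With 1% all 19 were above their 0% value, 13 of them by 0.7 or more. With 2% it was 17, of which 6 by 0.7 or more. Of all bright genes 5.28% lay that far above 0% with 1%, and 2% with the 2% fluid. The list's median difference was 0.86 with 1% and 0.34 with 2%. Listed genes outside the 125 are named here and below as examples picked after their values were seen. TRIB3, a pseudokinase induced by ATF4, shows the unequal response: it read 10.17, 11.42 and 10.74 and missed the rule at 2%. SLC7A11, the cystine transporter, read 10.99, 11.99 and 10.99, the same with 2% as with 0%, while butyrate alone had 6.17 against 11.5 in medium.

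The unfolded protein response had fewer members. HERPUD1, which helps remove misfolded proteins from the endoplasmic reticulum, read 11.66, 13.22 and 12.77 with 0%, 1% and 2%, against 11.26 with butyrate and 11.98 in medium. DNAJB9, a co-chaperone of that compartment, read 8.84, 10.55 and 9.67, against 7.9 with butyrate and 9.56 in medium. PPP1R15A, which restores translation after stress, read 7.99, 10.42 and 8.89, against 7.89 with butyrate and 9.27 in medium. Its 2% level was thus under that of medium. ERN1, a sensor of unfolded proteins, read 8.32, 9.71 and 9.05, against 8.37 with butyrate and 8.42 in medium. PPP1R15A and ERN1 were picked for the text after their values were seen. Among 17 endoplasmic reticulum chaperones and related genes, all bright, DNAJB9 and HERPUD1 were the 2 that met the rule. The main chaperone HSPA5 read 13.06, 13.73 and 13.49 and did not meet it. The list's median was 0.46 with 1% and 0.08 with 2%.

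Promoter sequence is shown for 3 of these genes because ATF4 binds a composite element that pairs its own site with that of C/EBP factors. RefSeq windows from 250 bases before to 50 after each annotated start (GRCh38.p14) were matched for 93 of the 125 genes. The letters TGATGNAA were searched on both strands. They occur in 6 of 105 windows of higher genes (5.71%), 1 of 26 windows of lower genes (3.85%) and 3.62% of all 35116 windows. The capitals mark the match, read on the gene's own strand, so that TTGCATCA is the element on the opposite strand. Each stretch of 80 bases ends before the start. The CHAC1 stretch is chr15:40953226-40953305 on the plus strand, that of ATF3 chr1:212565180-212565259 on the plus strand, and that of HERPUD1 chr16:56931930-56932009 on the plus strand.
CHAC1: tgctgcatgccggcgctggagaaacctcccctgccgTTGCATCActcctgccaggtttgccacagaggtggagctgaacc
ATF3: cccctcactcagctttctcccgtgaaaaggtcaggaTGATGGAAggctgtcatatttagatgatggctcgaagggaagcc
HERPUD1: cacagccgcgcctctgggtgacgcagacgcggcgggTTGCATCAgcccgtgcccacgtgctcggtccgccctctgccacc
A match is a description of the letters and no evidence of binding in these cells. The cyclic AMP response element TGACGTCA was in 4.76% of higher, 11.5% of lower and 1.85% of all windows. The endoplasmic reticulum stress element was in 0 windows of either set and in 0.0769% of all.

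Genes of the hypoxia response and of glucose use were a further group. TXNIP, which restrains glucose uptake and binds thioredoxin, had the largest difference of the 125 genes in the 2% array. It read 5.35, 8.02 and 9.71 with 0%, 1% and 2%, so it was 6.4-fold higher with 1% and 20.6-fold higher with 2%. Butyrate gave 7.92 and medium 6.05. In the 0% fluids of vessels 2, 3 and 4 TXNIP read 8.37, 9.35 and 9.19, all far above its 0% level in vessel 1.

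NDRG1, a hypoxia-induced gene that restrains growth and spread, read 10.19, 11.63 and 11.83 with 0%, 1% and 2%, against 10.61 with butyrate and 8.74 in medium. KDM3A, a histone demethylase, read 8.19, 9.06 and 9.25, and MXI1, an antagonist of MYC, 8.74, 9.48 and 9.54. The 2% value was the highest of the 3 in each of these, but by 0.2 or less. ALDOC, a glycolytic aldolase, was dim with 0% (3.74) and 1% (4.7) and read 6.03 with 2%, at least 1.03 above log2 5. ENO2, a glycolytic enolase, read 7.09, 8.09 and 8.11 with 0%, 1% and 2%, against 7.66 with butyrate and 4.96 in medium.

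Of 13 bright hypoxia genes 4 met the rule as higher (NDRG1, KDM3A, MXI1 and DDIT4) and 0 as lower, and DDIT4 is also an ATF4 target. Their medians were 0.69 with 1% and 0.97 with 2%, and 5 and 8 of the 13 were at least 0.7 above 0%, beside 5.28% and 2% of all bright genes. ANKRD37 read 8.11, 8.48 and 9.63 and EGLN3, an oxygen sensor, 6.2, 6.88 and 7.46, so both passed with 2% and missed with 1%. VEGFA, the angiogenic growth factor, read 10.25, 11.26 and 10.87 and missed with 2%. HIF1A itself read 12.21, 12.24 and 12.3. Of 21 bright genes of glycolysis and glucose transport 3 were higher, ALDOC, ENO2 and TXNIP.

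The core of the hypoxia response element, ACGTGC on either strand, was in 17 of 105 windows of higher genes (16.2%), 2 of 26 of lower genes (7.69%) and 6.89% of all windows. It is shown in capitals for DDIT4 (chr10:72273762-72273841, plus strand), ALDOC (chr17:28577066-28577145, minus strand) and ENO2 (chr12:6914425-6914504, plus strand), again 80 bases 5′ to 3′ on the gene's strand.
DDIT4: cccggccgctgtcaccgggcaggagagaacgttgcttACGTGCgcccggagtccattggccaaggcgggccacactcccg
ALDOC: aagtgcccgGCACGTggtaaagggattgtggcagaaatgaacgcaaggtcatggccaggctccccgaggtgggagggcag
ENO2: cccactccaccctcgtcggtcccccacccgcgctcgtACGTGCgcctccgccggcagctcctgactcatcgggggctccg

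Chemokines and the inducible cyclooxygenase were higher with polydextrose in vessel 1. CXCL3, which attracts neutrophils, read 7.82, 10.37 and 9.35 with 0%, 1% and 2%, a 5.85-fold and a 2.89-fold difference. With butyrate CXCL3 was dim at 4.98, against 11.68 in medium, the highest of these values. CXCL2, its close relative, read 9.32, 11.48 and 10.61, against 6.16 with butyrate and 11.96 in medium. Its probe set is of a class that Affymetrix names for binding related transcripts. PTGS2, the inducible cyclooxygenase that makes prostaglandins, read 5.22, 7.54 and 6.89, against 4.0 with butyrate and 6.33 in medium. CCL20, which draws lymphocytes and dendritic cells, read 11.1, 11.87 and 11.83.

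Of 16 bright NF-kB targets CXCL2, CXCL3 and CCL20 met the rule as higher and 0 as lower, with list medians of 0.86 (1%) and 0.35 (2%). At least 0.7 above 0% were 10 of the 16 with 1% and 3 with 2%, beside 5.28% and 2% of all bright genes. CXCL1 read 8.29, 9.69 and 8.96 and CXCL8, the main neutrophil attractant, 11.32, 12.27 and 11.9, so both met the threshold with 1% and missed it with 2%. NFKBIA, the inhibitor that NF-kB induces, read 9.16, 10.3 and 9.19. IL33, an alarm cytokine of epithelium, read 8.72, 8.48 and 9.18. DUOX2, an oxidase of the mucosal surface, was dim with 0% (3.48) and read 6.16 and 5.46 with 1% and 2%, at least 1.16 and 0.46 above. It was also dim with butyrate (3.3) and in medium (2.88), and was picked for the text after its values were seen.

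The NF-kB consensus element, on either strand, was found in the windows of these 3 chemokines, 2.86% of those of higher genes, in 11.5% of those of lower genes and in 1.91% of all. The stretches shown are chr4:74099229-74099308 (CXCL2, minus strand), chr4:74038724-74038803 (CXCL3, minus strand) and chr2:227813728-227813807 (CCL20, plus strand). Capitals mark the match, which in CCL20 lies on the opposite strand.
CXCL2: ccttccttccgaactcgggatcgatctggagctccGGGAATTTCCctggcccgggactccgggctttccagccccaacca
CXCL3: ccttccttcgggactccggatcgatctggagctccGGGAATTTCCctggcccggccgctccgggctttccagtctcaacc
CCL20: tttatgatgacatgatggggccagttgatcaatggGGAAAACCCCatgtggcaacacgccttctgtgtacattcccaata

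Some histone, squamous and clock genes were also among the higher genes. H2BC21 and H2BC4 encode the core histone H2B. H2BC21 read 5.68, 6.82 and 7.32 with 0%, 1% and 2%, against 9.67 with butyrate and 3.86 in medium. H2BC4 was dim with 0% (4.86) and read 5.63 and 6.23, at least 0.63 and 1.23 above, with 7.87 under butyrate and 3.69 in medium. These were 2 of 8 bright histone genes, though H2BC4 missed the rule with values under 5 set to 5. SPRR1A, a precursor of the tough envelope of squamous cells, read 5.3, 6.79 and 6.93, against 8.7 with butyrate and 2.07 in medium. S100A9, a subunit of calprotectin, was dim with 0% (4.69) and read 5.52 and 6.42. Like H2BC4 it missed the rule with values under 5 set to 5.

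For the 3 genes H2BC21, H2BC4 and SPRR1A the order, NaCl left aside, was the same: medium lowest, then 0%, 1% and 2% fluid, and butyrate highest. With NaCl H2BC21 read 7.19, between the 1% and 2% fluids and far above medium. H2BC4 (4.39) and SPRR1A (1.68) were dim with NaCl. Of 10 bright clock genes 3 were higher, the repressor BHLHE40 and the output factors DBP and TEF. DBP read 7.64, 8.56 and 8.85 with 0%, 1% and 2%, with 7.89 under butyrate and 4.68 in medium. BHLHE40 read 9.05, 10.03 and 9.9 and TEF 5.08, 6.07 and 5.89. The core factor CLOCK read 9.34, 9.36 and 9.34.

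Further higher genes with large differences came from no shared list. LURAP1L was dim with 0% (4.53) and read 7.62 and 6.87 with 1% and 2%, at least 2.62 and 1.87 above. It was also dim with butyrate (4.53) and read 6.37 in medium. FBXO32, a ubiquitin ligase subunit known from muscle wasting, read 6.77, 9.22 and 8.5, against 6.93 with butyrate and 5.52 in medium. RGS3, which shortens G protein signalling, read 5.89, 8.84 and 7.31, against 4.52 with butyrate, a dim level, and 6.44 in medium. TTLL1, which modifies tubulin, read 6.61, 7.96 and 8.24, against 7.92 with butyrate and 5.19 in medium. SREBF1, the regulator of fatty acid synthesis, read 7.4, 8.32 and 8.8, against 9.29 with butyrate and 6.79 in medium, and was 1 of 8 bright genes of its list. Of the remaining lists growth arrest had 2 of 11 (SESN2 and GADD45A, at 10.01, 11.07 and 10.76) and matrix genes 1 of 19 (ITGA5, at 7.81, 8.72 and 8.71). Immediate-early genes had 1 of 23 (ATF3), prostaglandin synthesis 1 of 8 (PTGS2) and genes known to respond to deacetylase inhibitors 1 of 8 (TXNIP). Of 14 bright genes of keratins and squamous epithelium 2 were higher (SPRR1A and S100A9) and 1 lower (KRTAP3-1). Of the 40 lists 22 held none of the 125 genes. CDKN1A, the cell cycle inhibitor p21, did not meet the rule with 9.84, 10.49 and 10.11.

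**Figure D2:**
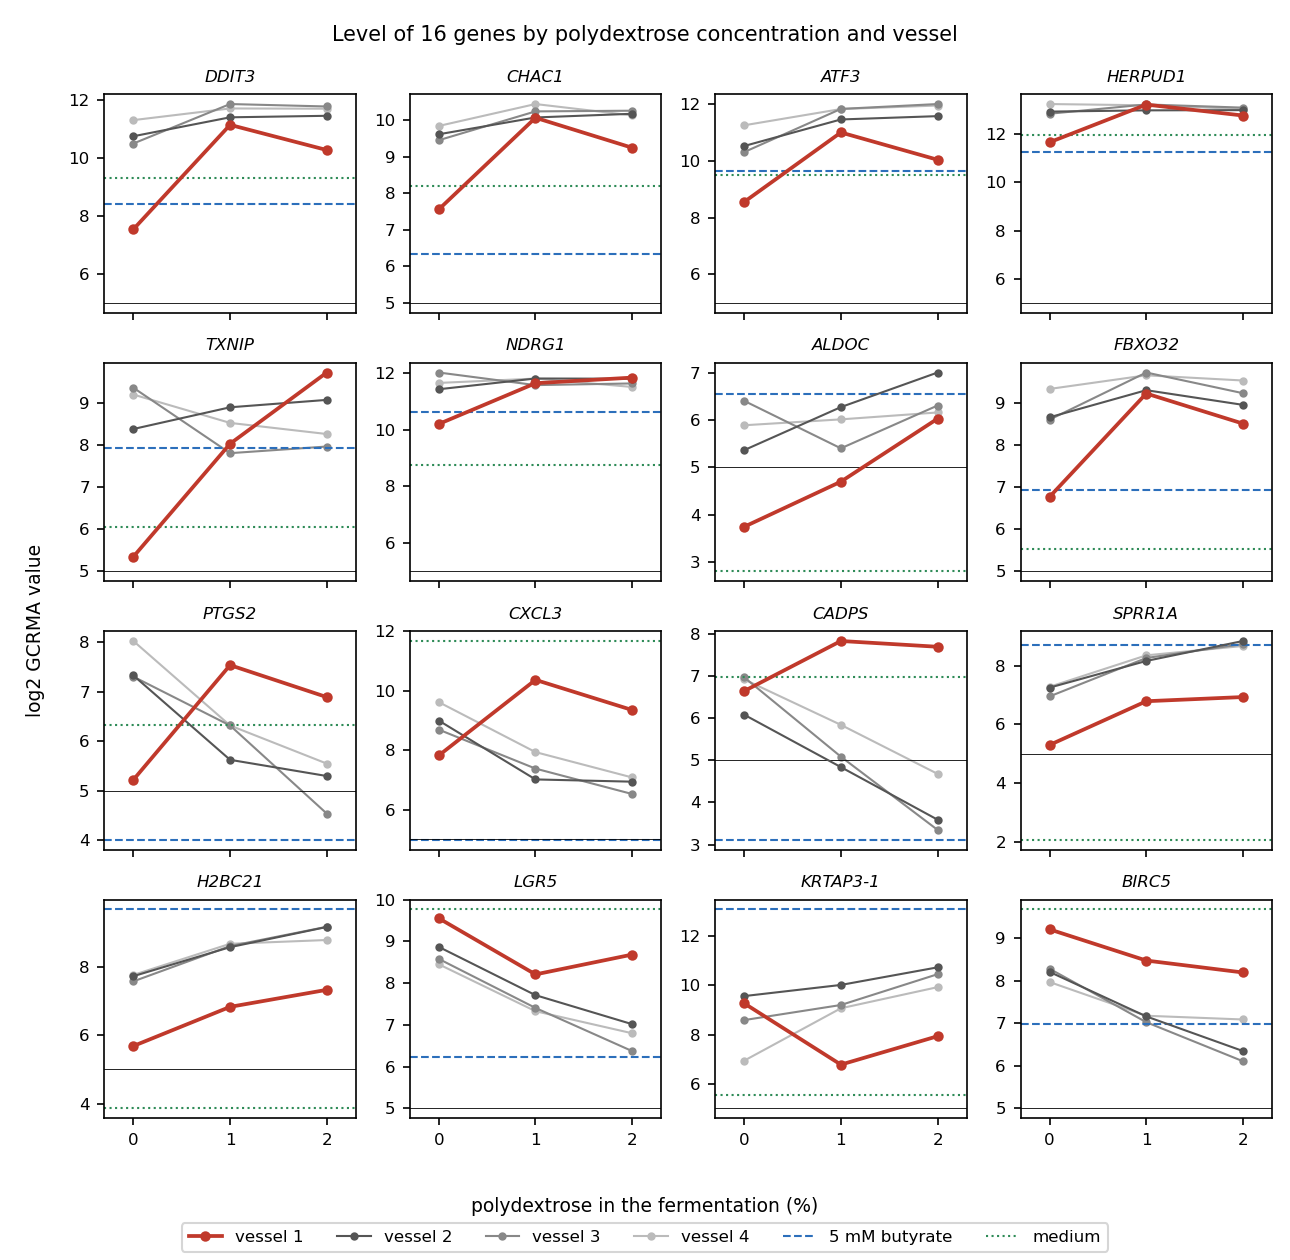
Log2 level (y axis) of 16 genes in the 0%, 1% and 2% fluid (x axis) of each vessel, with vessel 1 as the thick line. Dashed and dotted lines are butyrate and medium, and the thin black line is log2 5. In the panels of DDIT3, CHAC1, ATF3 and TXNIP the 0% point of vessel 1 (7.54, 7.56, 8.56 and 5.35) lies under the points of the other vessels. PTGS2 and CXCL3 run upward in vessel 1 and downward in vessels 2 to 4.

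Among the lower genes KRTAP3-1, a keratin-associated protein of hair, was the furthest below 0% with 1%. It read 9.27, 6.78 and 7.93 with 0%, 1% and 2%, so it was 5.63-fold lower with 1% and 2.53-fold lower with 2%. Butyrate gave 13.09 and medium 5.55, so all 3 fluids were above medium and far below butyrate. DLEU2 read 6.59 with 0% and was dim at 4.87 with both 1% and 2%, at least 1.59 lower, with 4.03 under butyrate and 6.04 in medium. Its neighbour DLEU1 read 7.28, 5.83 and 6.28, but 8.77 with butyrate and 6.41 in medium. Both are non-coding RNAs of chromosome 13, and against medium butyrate was higher for DLEU1 and lower for DLEU2. The DLEU2 probe set is of the same class as that of CXCL2, and its butyrate value was dim.

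Genes of proliferation were among the lower genes. LGR5, a receptor that marks intestinal stem cells and a Wnt target, read 9.55, 8.21 and 8.68 with 0%, 1% and 2%, against 6.23 with butyrate and 9.77 in medium. BIRC5 encodes survivin, which acts in chromosome segregation, and read 9.21, 8.48 and 8.2, against 7.0 with butyrate and 9.68 in medium. POLE2, a DNA polymerase subunit, read 6.32, 5.26 and 5.54, and GINS2, part of the replicative helicase, 9.12, 8.32 and 8.22. CDC25A, the phosphatase that releases cyclin-dependent kinases, read 6.36, 5.65 and 4.15, at least 1.36 lower with 2%, against 4.27 with butyrate and 8.21 in medium. CDC25A was picked after its values were seen. HSPH1, a heat shock protein, read 10.6, 9.74 and 9.75, against 8.51 with butyrate and 10.68 in medium.

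In the lists of mitosis and of DNA replication the median lay further below 0% with 2% than with 1%. Of 28 bright genes of mitosis and the spindle BIRC5 met the rule, but with 2% 0 of the 28 were above 0% and 10 were at least 0.7 below it, against 1 with 1%. Of 24 bright genes of DNA replication GINS2 and POLE2 met the rule, with 2% 0 were above 0% and 11 were at least 0.7 below. Of all bright genes 1.93% lay that far below 0% with 1%, and 2.05% with 2%. The medians were -0.22 with 1% and -0.59 with 2% for mitosis, and -0.36 and -0.66 for replication. LGR5 was 1 of 10 bright Wnt and stem cell genes and HSPH1 1 of 10 heat shock genes. MYC, a driver of growth, read 11.07, 11.11 and 10.89.

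E2F factors control many replication genes, so their elements TTTCCCGC and TTTGGCGC were searched on both strands. They were in 4 of 26 windows of lower genes (15.4%), those of CDC25A, GINS2, OIP5 and POLE2, in 1 window of the higher genes (0.952%) and in 2.27% of all. With 26 windows a single match is a visible share. The element is in capitals for GINS2 (chr16:85688955-85689034, minus strand) and CDC25A (chr3:48188418-48188497, minus strand).
GINS2: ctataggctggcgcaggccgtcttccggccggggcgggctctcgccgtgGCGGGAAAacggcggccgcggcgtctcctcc
CDC25A: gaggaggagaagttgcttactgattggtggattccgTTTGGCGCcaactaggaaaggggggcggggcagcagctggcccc

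In vessels 2 to 4 the same genes were tested with limma in arrays that played no part in their choice. The fit held 8719 genes, and its adjusted p-values below are over all of them. Among the 88 higher genes tested, 21 (23.9%) passed as higher with 2% against 0%, where 16.8% of all genes did, and 20 (22.7%) passed as lower, where 19.9% of all did. Their median difference was 0.01, beside -0.02 for all genes. The share that moved the same way as in vessel 1 was thus near that of genes at large. The higher gene not tested was DUOX2, which was dim in these vessels.

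With 1% against 0%, 22 of the 88 (25%) passed as higher, where 6.73% of all genes did, and 7 (7.95%) as lower, where 6.32% did. The median was 0.13. This count is fragile, because without any of 6 arrays it dropped by over 1.5 times. It was 7 without the 0% array of vessel 2 or of vessel 3 and 11 without that of vessel 4. It was 12 without the 1% array of vessel 2 or of vessel 3 and 5 without that of vessel 4.

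Of the 35 lower genes tested 15 (42.9%) passed as lower with 2%, where 19.9% of all genes did, and 7 (20%) as higher, where 16.8% did. The median was -0.36. With all probe sets of a gene averaged 9 passed as lower. With 1% 9 (25.7%) passed as lower, where 6.32% of all did, and 2 (5.71%) as higher. That count was 5 without the 0% array of vessel 3 or the 1% array of vessel 4. CDC25A was not tested, being dim there.

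The stress genes that were higher in vessel 1 were in part higher in the later vessels too, though from a higher 0% level. DDIT3 read 11.45, 11.77 and 11.7 with the 2% fluids of vessels 2, 3 and 4, against 10.75, 10.49 and 11.3 with the 0% fluids. The 2% and 0% values did not overlap, and DDIT3 rose by 0.79 (limma adjusted p = 0.0121). Without the 2% array of vessel 3 its adjusted p was 0.0538, the highest over the alternatives, whose lowest was 0.00852. ATF3 averaged 11.85 ± 0.23 with 2% and 10.7 ± 0.5 with 0% (SD, n = 3 each), a rise of 1.15 (limma adjusted p = 0.00337). CHAC1 rose by 0.55 (limma adjusted p = 0.00795) and SESN2 by 0.93 (limma adjusted p = 0.00622). By contrast DDIT4 (-0.10), HERPUD1 (0.04) and VLDLR (-0.15) did not pass, with limma adjusted p of 0.366, 0.807 and 0.603. DNAJB9 fell by 0.83 (limma adjusted p = 0.00989). Of the 19 tested ATF4 targets 5 passed as higher and 2 as lower, and of 17 chaperones 0 as higher and 12 as lower, where 16.8% of all genes passed as higher and 19.9% as lower.

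PTGS2 and the CXC chemokines ran the opposite way in the later vessels. PTGS2 read 5.29, 4.53 and 5.55 with the 2% fluids of vessels 2, 3 and 4, against 7.33, 7.3 and 8.03 with the 0% fluids. The 2 groups lay far apart, and PTGS2 fell by 2.43 (limma adjusted p = 0.000608). CXCL3 read 6.94, 6.52 and 7.08 with 2%, against 9.0, 8.69 and 9.62 with 0%, and fell by 2.26 (limma adjusted p = 0.000266). CXCL2 fell by 1.48 (limma adjusted p = 0.000401), and CXCL1 by 1.13 (limma adjusted p = 0.000435). CCL20 rose by 0.37 (limma adjusted p = 0.0177), a call lost without the 0% array of vessel 3 or any single 2% array, where its adjusted p reached 0.0664 (lowest over the alternatives 0.00119). In vessel 1 the 2% levels of PTGS2 (6.89) and CXCL3 (9.35) were above those of all later vessels. The 0% levels there, 5.22 and 7.82, were below those of all later vessels. IL33, not among the 125 genes, fell by 4.06 (limma adjusted p = 0.000697) in the later vessels. Its 2% values there were dim (4.28, 3.23 and 4.65), so the size of the fall is uncertain.

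CADPS, a factor of vesicle release, and APOBEC3G, an antiviral deaminase, showed the same reversal and were picked after their values were seen. CADPS averaged 3.87 ± 0.71 with 2%, a dim level, and 6.65 ± 0.5 with 0% in the later vessels (SD, n = 3 each). It fell by 2.78 (limma adjusted p = 0.000366), against levels of 6.64, 7.83 and 7.69 with 0%, 1% and 2% in vessel 1. A second bright probe set of CADPS read 6.09, 6.02 and 6.63 in vessel 1 and did not meet the rule. APOBEC3G fell by 2.13 (limma adjusted p = 0.00116) to a mean of 4.99 with 2%, a dim level, and read 6.31, 7.28 and 7.53 in vessel 1.

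H2BC21, H2BC4 and SPRR1A were higher with 2% than with 0% in all 4 vessels. SPRR1A read 8.84, 8.74 and 8.67 with the 2% fluids of vessels 2, 3 and 4, against 7.25, 6.95 and 7.28 with 0%, and rose by 1.59 (limma adjusted p = 0.000164). H2BC21 rose by 1.35 (limma adjusted p = 0.000413) and H2BC4 by 1.20 (limma adjusted p = 0.000616). With 1% all 3 passed as well, at 1.10, 0.93 and 0.69 (limma adjusted p = 0.00509, 0.00774 and 0.0139), the last lost without the 0% array of vessel 2 or 3 or the 1% array of vessel 4 (0.00412 to 0.0664 over the alternatives). All 8 histone genes tested passed as higher with 2%, where 16.8% of all genes did. The hypoxia and glucose genes did not follow: NDRG1 (-0.05), KDM3A (0.01), MXI1 (-0.02), ENO2 (0.00), ALDOC (0.61) and TXNIP (-0.55) did not pass with 2%. Their limma adjusted p were 0.822, 0.945, 0.881, 0.993, 0.209 and 0.294. NDRG1 was at 11.42 to 12.01 in the 0% fluids of vessels 2 to 4, the level that the 1% and 2% fluids reached in vessel 1.

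**Figure D3:**
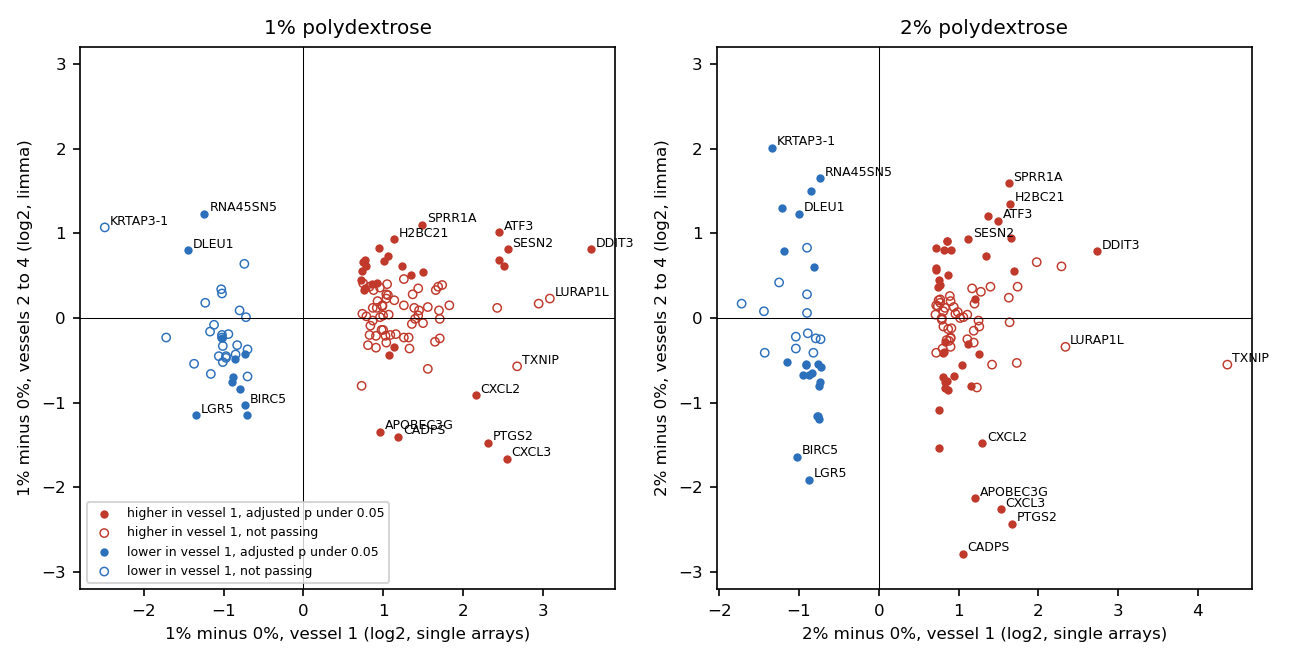
For each gene the difference from 0% in vessel 1 (x axis, log2, single arrays) stands against the difference in vessels 2 to 4 (y axis, log2, limma), with 1% and 2% in a panel each. Filled points passed in vessels 2 to 4. With 2% the red points, the genes higher in vessel 1, include 21 filled above 0 and 20 filled below it, and PTGS2 (-2.43), CXCL3 (-2.26) and CADPS (-2.78) lie lowest.

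LGR5, BIRC5, POLE2 and HSPH1 fell in the later vessels as well, and GINS2 did not pass. LGR5 read 7.02, 6.37 and 6.8 with the 2% fluids of vessels 2, 3 and 4, against 8.87, 8.58 and 8.45 with 0%, and fell by 1.91 (limma adjusted p = 0.000142). BIRC5 averaged 6.52 ± 0.51 with 2% and 8.16 ± 0.16 with 0% (SD, n = 3 each) and fell by 1.64 (limma adjusted p = 0.00167). POLE2 fell by 1.16 (limma adjusted p = 0.00427) and HSPH1 by 0.65 (limma adjusted p = 0.00101). POLE2 was dim with the 2% fluids (4.56, 3.78 and 4.22) and little above log2 5 or dim with 0% (5.6, 5.43 and 4.99), so the size of its fall is uncertain. GINS2 differed by 0.06 (limma adjusted p = 0.737). All 27 tested genes of mitosis passed as lower with 2%, and so did 15 of 25 genes of DNA replication, where 19.9% of all genes did.

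KRTAP3-1 turned the other way. It read 10.73, 10.46 and 9.93 with the 2% fluids of vessels 2, 3 and 4, against 9.57, 8.59 and 6.94 with 0%, and rose by 2.01 (limma adjusted p = 0.00396). Its 0% level varied widely between these vessels and was highest in vessel 2. DLEU1 rose by 1.23 (limma adjusted p = 0.000435), with 8.33 ± 0.01 with 2% and 7.1 ± 0.21 with 0% (SD, n = 3 each). RNA45SN5, the precursor of ribosomal RNA, rose by 1.65 (limma adjusted p = 0.000876) and was picked after its values were seen. NRGN (0.79) and ANKRD36B (1.30) rose too, with limma adjusted p of 0.0105 and 0.0171. The ANKRD36B call was lost without the 0% array of vessel 2 or 3 or the 2% array of vessel 3 or 4, with an adjusted p of 0.00338 to 0.0712 over the alternatives.

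The same rule of 0.7 with both fluids was also read within each later vessel. It found 67 higher genes in vessel 2 (0.864% of those bright there), 120 in vessel 3 (1.54%) and 140 in vessel 4 (1.8%). Of the 89 genes higher in vessel 1 it found 8, 12 and 7 as higher in vessels 2, 3 and 4, which is 11.9%, 10% and 5% of the genes found there. It found 5, 6 and 8 of them as lower. H2BC21 and SPRR1A were higher in each of the 3 later vessels, and PTGS2, CXCL3, CADPS and APOBEC3G were lower in each. As lower genes the rule found 87 (1.12%), 176 (2.25%) and 107 (1.38%). These held 4, 6 and 2 of the 36 lower genes of vessel 1, BIRC5 and LGR5 among them in each vessel. As higher it found 3, 2 and 4 of the 36, so in vessel 4 more of them ran the opposite way than the same way.

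Pure butyrate was set against medium, with 1 array each and again no test. Of the 89 higher genes 74 were bright in this pair, and 32 of them (43.2%) were at least 0.7 higher with butyrate, where 22.5% of all 8057 genes were. Lower by as much were 23 (31.1%), where 22.4% of all were, and the median was 0.46, beside 0.0 for all. The genes higher with butyrate included SPRR1A (by 6.64), H2BC21 (5.81), H2BC4 (4.18) and DBP (3.21). These were all dim in medium (2.07, 3.86, 3.69 and 4.68), so the sizes of their differences are uncertain. SREBF1 (2.49), TXNIP (1.87), NDRG1 (1.87) and FBXO32 (1.40) were also higher with butyrate. The genes lower with butyrate included CXCL3 (-6.70), CXCL2 (-5.80), CADPS (-3.87), PTGS2 (-2.33), CHAC1 (-1.86) and DNAJB9 (-1.67). Of these CXCL3 (4.98), CADPS (3.11) and PTGS2 (4.0) were dim with butyrate. SESN2 (-1.05), DDIT3 (-0.89), DDIT4 (-0.86) and HERPUD1 (-0.72) were lower as well, while ATF3 (0.15), CCL20 (0.55), VLDLR (-0.34) and ERN1 (-0.05) differed by less than 0.7. Several stress and chemokine genes that were higher with polydextrose in vessel 1 were thus lower with butyrate than in medium. The NaCl array read 6.86 for DDIT3, 10.1 for DDIT4, 6.3 for SESN2 and 11.25 for HERPUD1. None of these was above the butyrate value of the same gene (8.41, 10.69, 6.49 and 11.26). CXCL3 (8.36), CXCL2 (7.62), CADPS (7.14), PTGS2 (6.18), CHAC1 (7.5) and DNAJB9 (8.53) were above their butyrate values with NaCl.

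Of the 36 lower genes 24 (66.7%) were at least 0.7 lower with butyrate than in medium, where 22.4% of all genes were. Higher by as much were 6 (16.7%), where 22.5% of all were, and the median was -1.36. The lower ones included LGR5 (-3.54), BIRC5 (-2.69), HSPH1 (-2.17) and POLE2 (-1.70), and the higher ones KRTAP3-1 (7.54), NRGN (3.26) and DLEU1 (2.35). NRGN was dim in medium (4.61). Against the NaCl array in place of medium, 15 of the 36 were lower with butyrate and the median was -0.51. The share of all genes was not counted for that pair. With NaCl against medium 14 of 34 bright lower genes (41.2%) were at least 0.7 lower, where 14.5% of all genes were. Higher by as much were 3 (8.82%), where 16.3% of all were, and the median was -0.55. POLE2 read 5.0 with NaCl and 5.04 with butyrate, while LGR5 (9.22), BIRC5 (9.15) and HSPH1 (11.56) were above their butyrate values with NaCl.

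**Figure D4:**
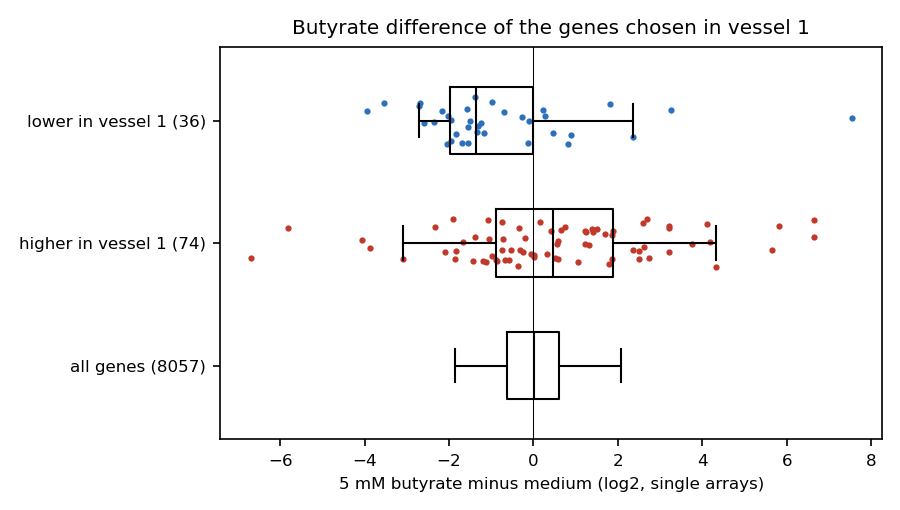
Butyrate minus medium (x axis, log2, single arrays) for the lower genes (36), the higher genes (74 bright in this pair) and all genes (8057). Points are genes in the upper rows (all genes have a box alone), boxes the quartiles with the median and whiskers the central 90%. The median of the lower genes is at -1.36 and that of the higher genes at 0.46, with CXCL3 (-6.70) and SPRR1A (6.64) near the ends of the range. CXCL3 was dim with butyrate and SPRR1A in medium.

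The salt control shared some of the higher genes. With 100 mM NaCl 24 of 64 bright higher genes were at least 0.7 above medium (37.5%), where 16.3% of all genes were, and 21 were below (32.8%), where 14.5% of all were. CCL26, which attracts eosinophils, read 7.92, 9.01 and 8.82 with 0%, 1% and 2% in vessel 1, 13.01 with NaCl and 5.56 in medium. TSC22D3, a gene induced by glucocorticoids and by high salt, read 5.29, 7.13 and 6.55, with 10.21 under NaCl and 5.86 in medium. Both lay far below their NaCl level in the 3 fluids of vessel 1, and were picked after their values were seen. DDIT3 was at 6.86 and ATF3 at 7.68 with NaCl, under their medium levels of 9.31 and 9.5.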

How the data were processed

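Total RNA of Caco-2 cells after 15 treatments was read on 1 Affymetrix array each. The authors deposited 54675 probe sets as log2 values, made with GCRMA per the submitters' processing notes, a method that subtracts background, quantile-normalizes arrays and combines the probes of a set. That the scale is log2 was inferred from the range, 0.173 to 14.46. No date or other batch label was used here. Precision is limited by how many arrays there are. The platform's annotation gave 41097 probe sets 1 gene symbol, 1801 several and 11777 none, and the highest mean over the 15 arrays chose 1 probe set for each of 19775 genes.

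The rule was applied to the 3 arrays of vessel 1, without a test. limma 3.58.1 in R 4.3.3 was fitted to the 9 arrays of vessels 2 to 4, with concentration and vessel as factors, for 8719 genes with log2 of at least 5 in at least 3 arrays. It left 4 residual degrees of freedom, and two-sided p-values were adjusted over all genes tested (Benjamini-Hochberg, threshold 0.05). The fit was checked on simulated data.

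The members and the 40 gene lists (794 entries, 725 matched to a gene) were chosen with earlier results of these data known. Named genes were the 12 highest and 12 lowest by the smaller of both differences with values under 5 set to 5, up to 4 members of a list and the genes at the border of the rule. PTGS2, CXCL1, CXCL3, IL33, CDKN1A and MYC were named in any case, which gave 61 genes by rule, and 9 members were added after their values were seen. The vessel numbers pair arrays because a vessel is a factor of the study. The deviations of 9 same-vessel pairs correlated with a median of 0.0282 (-0.301 to 0.323), and 3 were over 0.1. Alternatives changed the brightness limit, the difference, the probe sets, the normalization, the filter, the block, the prior, the control for butyrate and each array in turn. Leaving out the 1% or the 2% array of vessel 1 was chosen after seeing the data.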

Additional observations from a re-analysis of the deposited data

Results flagged for a closer look

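In a group of 4 fluids at the same concentration, the gap of the highest or lowest value to its neighbour was compared with the range of the group. The share of the range passed Dixon's critical value in 34 of 210 groups (70 named genes at 3 concentrations), and chance flags about 1 in 20. Most of the named genes were chosen by their values in vessel 1, so that vessel 1 stands apart in many groups follows from the choice, and the rate of 1 in 20 is no yardstick for it. The values below are these shares. The 0% fluid of vessel 1 stood apart as the lowest of the 4 for CHAC1 (0.8291), SPRR1A (0.835), H2BC21 (0.91), H2BC4 (0.896), DDIT4 (0.873), DBP (0.849) and CDKN1A (0.87). The 1% fluid of vessel 1 stood apart as the lowest of the 4 for SPRR1A (0.878), DLEU1 (0.901), H2BC21 (0.946), DBP (0.907) and RNA45SN5 (0.956). The 2% fluid of vessel 1 stood apart as the lowest of the 4 for CHAC1 (0.874), SPRR1A (0.911), DLEU1 (0.99), CCL20 (0.961) and RNF41 (0.952). The 0% fluid of vessel 1 stood apart as the highest of the 4 for RPL32P3 (0.871), LOC105379499 (0.895), HSPH1 (0.874), CDC25A (0.847) and RNA45SN5 (0.893). The 1% fluid of vessel 1 stood apart as the highest of the 4 for CXCL2 (0.835), BIRC5 (0.895), VLDLR (0.859), HSPH1 (0.924), CXCL1 (0.953) and DUOX2 (0.921). The 2% fluid of vessel 1 stood apart as the highest of the 4 for BHLHE40 (0.883) and DUOX2 (0.948). With the 1% fluids vessel 2 was lowest for LURAP1L (0.878) and HERPUD1 (0.855). With the 1% fluids vessel 3 was lowest for FAM111B (0.91). With the 2% fluids vessel 2 was lowest for MXI1 (0.847).

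For 31 differences among the named genes, vessel 1 went one way against its 0% fluid and each of vessels 2, 3 and 4 went the other. The values are the log2 difference in vessel 1 less the mean difference of vessels 2 to 4, and this contrast of vessels was not tested, since vessel 1 has 1 array per concentration. With 2% the gap was positive for LURAP1L (2.68), PTGS2 (4.10), CXCL3 (3.79), RGS3 (1.97), CXCL2 (2.78), DDIT4 (1.36), DNAJB9 (1.66), S100A9 (2.26), ITGA5 (1.24), BHLHE40 (1.11), DUOX2 (2.90), CADPS (3.83), APOBEC3G (3.34), CCL26 (1.13) and TSC22D3 (1.69). With 2% the gap was negative for KRTAP3-1 (-3.35), NRGN (-1.99), ANKRD36B (-2.51), DLEU1 (-2.23) and RNA45SN5 (-2.39). With 1% the gap was positive for PTGS2 (3.79), CXCL3 (4.21), CXCL2 (3.07), DUOX2 (3.65), CADPS (2.59), APOBEC3G (2.30) and CCL26 (1.29). With 1% the gap was negative for KRTAP3-1 (-3.56), DLEU1 (-2.25), GINS2 (-0.89) and RNA45SN5 (-2.47). The direction in vessel 1 was fixed by the choice of the genes. The ranges over vessels 2 to 4 with 2% were -2.77 to -2.03 for PTGS2, -3.62 to -2.24 for CADPS and 1.17 to 2.99 for KRTAP3-1.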

How the results depend on the processing

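No named difference that passed turned its direction under any alternative run. Counts were compared by size alone and have no direction to turn. The excess of higher over lower genes was not kept without the 1% array of vessel 1, which gave 152 higher and 160 lower. Of the named differences in vessels 2 to 4, 30 changed sign at least once, in 59 values in all, and none of those values or their differences was past the threshold. Requiring log2 1 in place of 0.7 left 32 higher and 9 lower genes in vessel 1, and averaging all probe sets of a gene gave 59 and 21, with 51 of the 89 and 17 of the 36 kept. Without the 1% or the 2% array of vessel 1, the rule found 152 to 409 higher and 152 to 160 lower genes. A brightness limit of 5 or 7 gave 108 or 68 higher and 51 or 27 lower genes. With values under log2 5 set to 5, 84 of the 89 higher and all 36 lower genes stayed. ALDOC, BCKDHA, DUOX2, H2BC4 and S100A9 then missed the rule. Of 496 named differences in vessel 1 under alternatives, 60 moved by more than the spread of vessels 2 to 4, of which 53 with the mean of probe sets and 7 with values under 5 set to 5. With NaCl in place of medium 15 of the lower genes were lower with butyrate, with a median of -0.51. In vessels 2 to 4, with no replicate block, 3341 genes passed with 2% and 1326 with 1%, against 3197 and 1138 with the vessel as the block, and among the named genes that passed ATP5MC1 (with 2%), TSC22D3 (with 2%) and FBXO32 (with 1%) lost their call. Leaving out single arrays gave 2118 to 3287 with 2% and 202 to 1215 with 1%. Without a filter 691 genes passed with 1%, and 689 with the 6 arrays compared alone. Higher genes passing as higher with 1% numbered 5 to 22 over the arrays left out, and lower genes passing as lower 5 to 11. With the mean of probe sets lower genes passing as lower numbered 9 with 2% and 5 with 1%. Of 2270 named results of vessels 2 to 4, 2110 stayed on their side of the threshold, 123 lost it and 37 gained it, and the cause was not tested. With 1 array per fluid of vessel 1 and 4 residual degrees of freedom elsewhere, small differences are beyond what these arrays can show.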
